A study of Mus musculus with 9 samples.

Results

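Arhgap10 and Asap1 are mouse genes from which many different circular RNAs (circRNAs) were listed, 81 from Arhgap10 and 66 from Asap1. These 147 circRNAs are all those assigned to either gene among 37751 listed from 6943 host genes. Both hosts were chosen by the number of distinct circRNAs in these libraries, so that number is given as a description only. Back-splice reads, which cross the junction that closes a circle, were counted in C2C12, a line of mouse skeletal muscle myoblasts that stop dividing and fuse into myotubes when serum is lowered. The groups were proliferating, not yet confluent cells in medium with fetal bovine serum (day 0), and cells at day 3 and day 6 after confluent cultures were moved to medium with less serum, from horse. Each day had 3 libraries of total RNA, treated to enrich circRNAs as the labels describe, and all groups are the same unmodified line. No label states that libraries of one day are separate cultures, and p-values therefore rest on a spread among libraries that may be technical.

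Arhgap10 encodes a GTPase-activating protein that acts on the actin cytoskeleton, and its close relative Arhgap26 is known for a part in myoblast fusion. Asap1 encodes a GTPase-activating protein for Arf GTPases, which act in membrane traffic, and is found at focal adhesions. A GTPase-activating protein turns its GTPase off by speeding GTP hydrolysis. In back-splicing, the donor site at the end of an exon is joined to the acceptor site at the start of the same or an earlier exon. The outermost exons of a transcript lack one of these sites and are not normally part of a circle. Each circle is counted only at its own junction, so its count does not add up reads along its length. Other effects of circle length on the counts were not tested.

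The junction sequences below separate the 4 Arhgap10 circles on which the results turn, plus the Asap1 circle with the most reads among those that open at neither exon 2 nor exon 3. Each line runs 5′ to 3′ on the minus strand, with 30 bases of the closing exon in lower case and 30 bases of the opening exon in capitals, from the GENCODE M21 transcripts on GRCm38.
Arhgap10 exons 14 to 18, chr8:77344640-77365160: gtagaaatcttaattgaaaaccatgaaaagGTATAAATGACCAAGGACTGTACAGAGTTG
Arhgap10 exons 14 to 19, chr8:77310731-77365160: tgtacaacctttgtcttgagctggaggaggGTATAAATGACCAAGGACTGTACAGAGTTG
Arhgap10 exons 9 to 13, chr8:77382725-77411128: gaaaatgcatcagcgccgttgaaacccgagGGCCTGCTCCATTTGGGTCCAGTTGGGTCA
Arhgap10 exons 9 to 12, chr8:77384751-77411128: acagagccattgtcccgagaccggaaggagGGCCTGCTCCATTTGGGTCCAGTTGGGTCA
Asap1 exons 10 to 14, chr15:64149606-64160297: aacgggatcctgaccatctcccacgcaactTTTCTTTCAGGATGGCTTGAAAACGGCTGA
The circles of exons 14 to 18 and 14 to 19 share the right side and differ on the left, as do those of exons 9 to 13 and 9 to 12. The circles ending at exons 13 and 12 differ by exon 13, which is 66 bases long and is shown because the later comparison turns on it.
Arhgap10 exon 13, chr8:77382725-77382790: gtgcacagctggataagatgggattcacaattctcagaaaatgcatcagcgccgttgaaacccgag
Exon 2 of Asap1, which opens more Asap1 circles than any other exon, holds the start codon, in capitals, followed by the rest of its 59 coding bases.
Asap1 exon 2, coding part, chr15:64349828-64349886: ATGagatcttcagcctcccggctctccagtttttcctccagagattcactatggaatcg

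The libraries held 208787 to 443955 back-splice reads, of which Arhgap10 had 1694 to 5100 and Asap1 204 to 782. The smallest count above 0 in the table is 2, so 0 means none listed. Hosts that mark myotubes were listed for 10 of 10 genes and summed to 804 to 919 CPM (reads brought to the same total in each library, with TMM factors) at day 0, 11707 to 12975 CPM at day 3 and 14218 to 18258 CPM at day 6. Hosts that mark cycling cells, 7 of 7 listed, summed to 7596 to 9439, 1806 to 1998 and 646 to 1125 CPM on the same days. Of 3 markers each, 1 was listed for adipocytes (Pparg, 94.9 to 422 CPM over the libraries) and 1 for osteoblasts (Runx2, 235 to 601 CPM), with Adipoq, Plin1, Sp7 and Bglap not listed, and 0 of 3 neuron markers were listed. None of the 9 pairs of libraries within a day was alike within sampling noise, and pairs across days were not compared.

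Reads of both hosts, summed over their circRNAs, were higher at days 3 and 6 than at day 0. Arhgap10 was at 6005, 6674 and 8182 CPM at day 0, at 10864, 12236 and 11654 CPM at day 3, and at 13836, 12848 and 12049.5 CPM at day 6. All libraries of days 3 and 6 lay above all day 0 libraries, and those of days 3 and 6 overlapped. The mean was 11584 ± 688 CPM at day 3, against 6954 ± 1115 CPM at day 0 (SD, n = 3 each), which is 0.74 ± 0.13 higher on the log2 scale (SE, edgeR adjusted p = 0.000271). At day 6 it was 12911 ± 895 CPM, or 0.89 ± 0.13 log2 above day 0 (edgeR adjusted p = 9.47e-06). Day 6 minus day 3 was 0.16 ± 0.13 log2 (edgeR adjusted p = 1).

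Asap1 had a lower level and larger fitted fold changes over day 0, though the 2 hosts were not tested against each other. Its levels were 885, 929.8 and 775 CPM at day 0, 1643, 2202 and 1958 CPM at day 3, and 1813, 1681 and 1848 CPM at day 6. Again every library of days 3 and 6 lay above those of day 0, while days 3 and 6 overlapped. The mean at day 3 was 1934 ± 280.2 CPM, against 863 ± 80.0 CPM at day 0 (SD, n = 3 each), which is 1.16 ± 0.21 log2 higher (edgeR adjusted p = 0.000291). At day 6 the mean was 1781 ± 88.0 CPM, 1.04 ± 0.21 log2 above day 0 (edgeR adjusted p = 0.000888) and -0.12 ± 0.21 log2 from day 3 (edgeR adjusted p = 1). Of 4135 hosts tested, 3.05% were higher at day 3 and 3.85% at day 6, while 0.895% and 1.79% were lower at these days than at day 0. Between day 6 and day 3, 0.0726% of hosts differed in either direction. In RNA of whole cultures, a change in the RNA of each cell and a change in the mix of myoblasts and myotubes cannot be told apart. As both hosts rose from day 0, the sum of myotube markers above rose and that of cycling cell markers fell. Their part in the result was not tested.

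**Figure D1:**
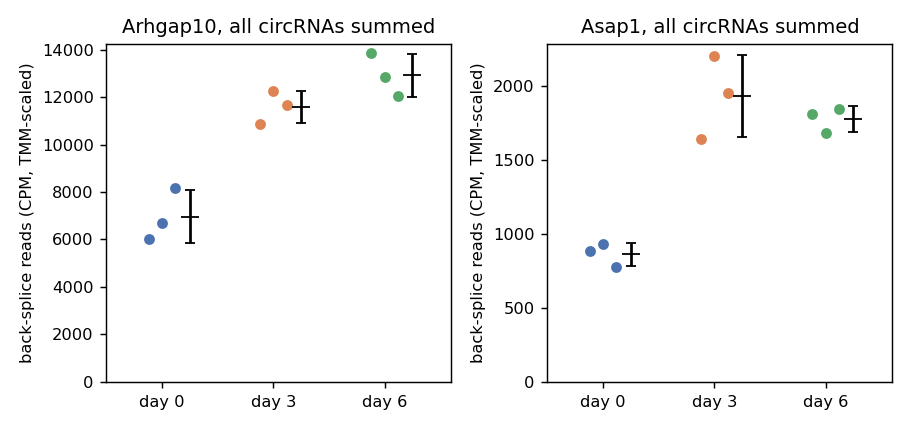
Summed back-splice reads of Arhgap10 (left) and Asap1 (right) in CPM, by day. Each point is 1 library, and the black mark with its bar is the mean ± SD of 3 libraries. The day 0 libraries, 6005 to 8182 CPM for Arhgap10 and 775 to 929.8 CPM for Asap1, lie below all later ones.

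Arhgap10 lies on the minus strand of chromosome 8 (chr8:77250366-77517953), and its annotated transcript Arhgap10-201 has 23 exons. The 81 circles used 26 distinct closing positions and 24 distinct opening positions. Of the 81, 60 had both ends at annotated exon edges and held 99.0% of the 27574 reads, and 18 that were deposited as intronic held 0.870%. The reads were unevenly spread: 15 circles listed in all 9 libraries held 87.3% of the reads, and 37 listed in a single library held 1.52%. Those 37 had 2 to 30 reads each. Among the 60 exon-to-exon circles the exon number at the opening ranged over 14 different exons and at the closing over 14, and neither exon 1 nor exon 23 took part.

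Exon 14 opened 10 circles with 15537 reads, 56.3% of all Arhgap10 reads. Its partners were exons 15, 16, 17, 18, 19, 20 and 22 and positions in the introns after exons 18 and 19. Exon 6 also opened 10 circles but with 710 reads (2.57%), and exon 9 opened 9 circles with 4208 reads (15.3%). At the other end, exon 18 closed 11 circles with 12875 reads (46.7%), exon 19 closed 9 with 5773 (20.9%), and exons 15 and 20 closed 8 each with 1254 and 819 reads. Exon 13 closed 4 circles with 4186 reads (15.2%). If circles keep the annotated exons between their ends, which junction reads do not show, exons 14 to 18 each lay within 68.1 to 73.9% of the reads of the exon-to-exon circles. Exons 9 and 10 each lay within 21.1%.

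The introns beside the most used exons were mostly long. The intron after exon 18 measured 33758 bp and that after exon 19 measured 33423 bp, which rank 2 and 3 among 22 introns with a median of 6313 bp. The intron between exons 13 and 14 measured 17564 bp (rank 7). Exceptions were exon 9, preceded by 2369 bp (rank 16), and exon 15, preceded by 6451 bp (rank 9), close to the median. Long introns also lay beside little used exons. The longest, of 66706 bp, precedes exon 2, which opened circles with 64 reads (0.232%). That of 33758 bp precedes exon 19, which opened circles with 89 reads (0.323%). Over the 22 introns, Spearman's correlation between intron length and reads was 0.44 for the exon opening after it and 0.57 for the exon closing before it, a description of neighbouring sites in the same 9 libraries.

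**Figure D2:**
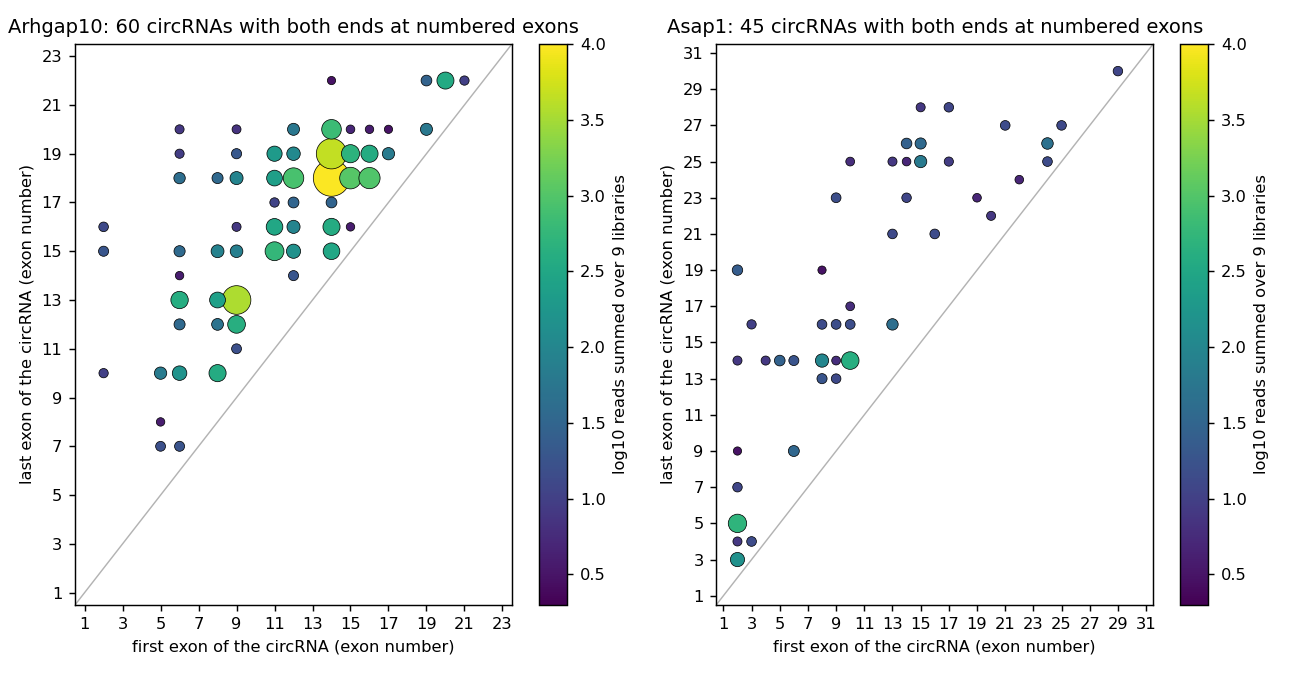
Exon-to-exon circles of Arhgap10 (left, 60 circles) and Asap1 (right, 45 circles) by opening exon (x) and closing exon (y). Colour gives log10 of the reads summed over 9 libraries and larger points hold more reads, and the grey line marks circles of a single exon. The Arhgap10 reads gather at opening exon 14 with closing exons 18 and 19, with another point at exons 9 to 13, and the Asap1 circles are spread from exon 2 to exon 30.

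The leading circle of Arhgap10 was that of exons 14 to 18 (chr8:77344640-77365160, 488 spliced bases if all 5 exons are kept), with 9605 reads or 34.8% of the host. It and the circle of exons 14 to 19 (chr8:77310731-77365160, 639 spliced bases, 4519 reads) were the 2 of the 147 with a circBase identifier. Next came exons 9 to 13 (396 spliced bases, 3541 reads), and these 3 together held 64.1% of the reads. Positions 4 to 9 by reads were taken by exons 15 to 18 (1043 reads), 16 to 18 (962), 12 to 18 (827), 14 to 20 (674), 11 to 15 (568) and 15 to 19 (472). Exons 9 to 12 came next with 420 reads. Of the 60 exon-to-exon circles, 20 had a spliced length that is a multiple of 3, including those of exons 14 to 19, 9 to 13 and 9 to 12 and not that of exons 14 to 18. Listed in at least 2 libraries, the longest circle spanned 107649 bp from exon 12 to exon 20 (chr8:77277148-77384796, 58 reads). The shortest such circle spanned 761 bp from exon 2 into intron 3 (chr8:77450163-77450923, 22 reads).

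Of the 147 circles, 48 passed the filter on low counts, 35 of Arhgap10 and 13 of Asap1, with 97.7% and 82.4% of the reads of their hosts. The rest were too thinly listed to test. Among the 35, 2 were higher at day 3 than at day 0 and 3 at day 6, and 0 were lower. Over the whole table, with 8153 tested, the shares called higher were 1.31% at day 3 and 1.47% at day 6, and those called lower were 0.27% and 0.515%. With an unadjusted p under 0.05 there were 7 Arhgap10 circles at day 3 and 10 at day 6, all higher. Of the 8153 circRNAs tested, 775 and 949 had such a p in either direction. DESeq2 called 1 and 5 Arhgap10 circles. Over the 8153 it called 163 higher and 99 lower at day 3, and 263 higher and 186 lower at day 6.

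The clearest change was in the circle of exons 14 to 19. Its levels were 921, 539.8 and 919 CPM at day 0, 2029, 1998 and 2459 CPM at day 3, and 2039, 2304 and 1870.2 CPM at day 6. The lowest later library was above the highest day 0 library. The log2 fold change over day 0 was 1.45 ± 0.22 at day 3 and 1.38 ± 0.22 at day 6 (SE, edgeR adjusted p = 1.17e-05 and 1.80e-05), and it passed under each alternative that was run. The leading circle, of exons 14 to 18, was at 2564, 2503 and 3531 CPM at day 0, 3829.6, 4421 and 3904 CPM at day 3, and 3984, 3862 and 3842 CPM at day 6. These groups did not overlap between day 0 and the later days either, but the log2 fold changes of 0.50 ± 0.15 at day 3 and 0.44 ± 0.15 at day 6 did not pass (edgeR adjusted p = 0.104 and 0.170). Without day 0 replicate 3, its highest day 0 library, they were 0.70 and 0.65 and passed (edgeR adjusted p = 0.000292 and 0.000746). It also passed with no filter on low counts (edgeR adjusted p = 0.000367 at day 3 and 0.00347 at day 6) and, at day 3, without any 1 day 6 library (0.0271 to 0.0480).

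The circle of exons 9 to 13 was at 737, 979 and 1015 CPM at day 0, 1300.1, 1381 and 1202 CPM at day 3, and 1774, 1513 and 1939 CPM at day 6. The 3 days did not overlap, each later day lying above the one before. At day 6 it was 0.94 ± 0.24 log2 above day 0 (SE, edgeR adjusted p = 0.0174), while the 0.51 ± 0.24 of day 3 did not pass (0.422). It did not pass at day 6 without day 0 replicate 1 (edgeR adjusted p = 0.133), without day 6 replicate 3 (0.149) or in a fit of these 2 days alone (0.0894).

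The circle of exons 9 to 12, which closes before exon 13, had no listed reads in 2 day 0 libraries and 19.9 CPM, which is 5 reads, in the other. At day 3 it was at 0, 165 and 211 CPM, and at day 6 at 399.8, 235 and 353 CPM. The day 6 libraries lay above all others, and day 3 was split between a library at 0 and 2 at higher levels. Its fitted log2 fold change over day 0 was 4.22 ± 1.12 at day 3 and 5.61 ± 1.16 at day 6 (SE, edgeR adjusted p = 0.0286 and 0.00114), with a size that rests on the 5 reads of day 0. The day 3 call was lost with DESeq2 (adjusted p = 0.250), a minimum count of 10 (0.136), these 2 days alone (0.617), without day 0 replicate 1 (0.0512) and without day 3 replicate 3 (0.0916), and the day 6 call in the fit of 2 days alone (0.0541).

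The remaining named Arhgap10 circles did not pass at either day in edgeR with all 9 libraries, TMM factors and no block. Exons 15 to 19 had 99.9, 0 and 0 CPM at day 0, 273, 337 and 85 CPM at day 3, and 296, 316 and 204 CPM at day 6. These values overlap between day 0 and day 3, and the log2 fold changes were 2.74 ± 0.89 and 2.97 ± 0.90 (edgeR adjusted p = 0.150 and 0.0752). This circle passed at both days without day 0 replicate 1, its only day 0 library above 0 (edgeR adjusted p = 9.66e-07 and 2.66e-07), and without day 3 replicate 3 (0.0228 and 0.0149). At day 6 it also passed without day 3 replicate 1 (edgeR adjusted p = 0.0481), without day 6 replicate 3 (0.0304), with RLE factors (0.0490) and by library size only (0.0421). Exons 15 to 18 averaged 236 ± 35.7, 427 ± 87.4 and 494 ± 70.2 CPM at days 0, 3 and 6, and exons 14 to 20 averaged 136 ± 27.7, 296 ± 106 and 318 ± 69.8 CPM. For both, the day 0 libraries lay below all later ones, yet neither passed (edgeR adjusted p of 0.324 to 0.422). DESeq2 called exons 15 to 18 at day 6 (DESeq2 adjusted p = 0.0219). Exons 16 to 18 were at 315 ± 279, 338 ± 166 and 496 ± 199 CPM, exons 12 to 18 at 224 ± 84.6, 412 ± 46.2 and 309 ± 204 CPM, and exons 11 to 15 at 161 ± 57.5, 191 ± 46.6 and 306 ± 157 CPM. In these last 3 the libraries of different days overlapped, except that day 0 lay below day 3 for exons 12 to 18.

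**Figure D3:**
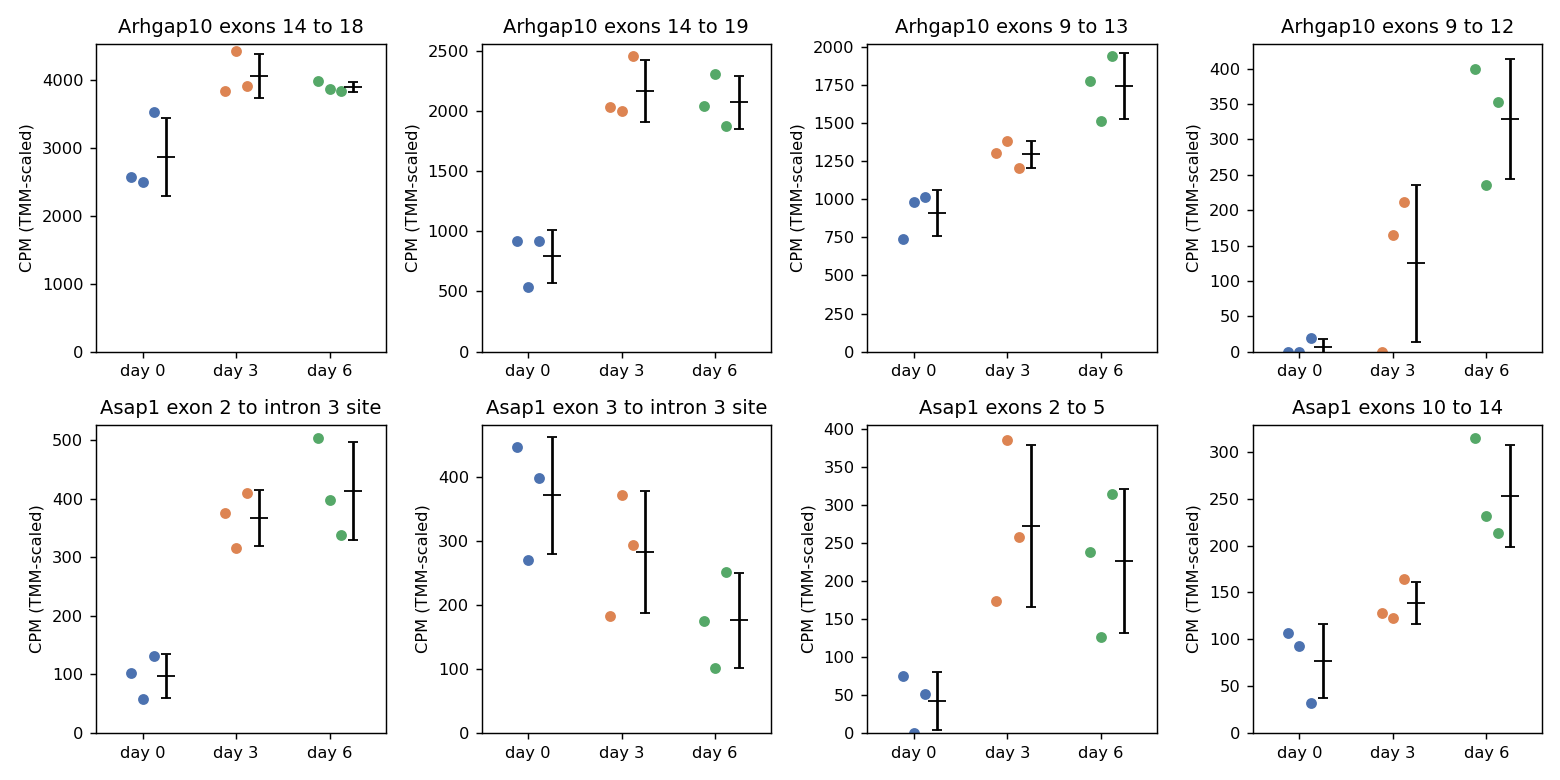
Levels of 4 Arhgap10 circles (top row) and 4 Asap1 circles (bottom row) in CPM by day, each panel on its own axis from 0. Points are libraries and black marks are the mean ± SD of 3 libraries. The circle of Arhgap10 exons 9 to 12 is at 0, 0 and 19.9 CPM at day 0 and at 235 to 399.8 CPM at day 6, and the Asap1 circle from exon 3 to the intron 3 site is the panel with its highest mean at day 0.

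Asap1 lies on the minus strand of chromosome 15 (chr15:64086857-64382919), with 31 exons in the annotated transcript Asap1-201. Its 66 circles used 28 closing and 30 opening positions and held 4079 reads. Of these circles, 50 had both ends at annotated exon edges, but they held only 55.2% of the reads, and the 15 circles deposited as intronic held 44.4%. The median share of reads from intronic circles was 0.772% over the 1068 hosts with at least 10 circles, and Asap1 ranked 19 among them. A single library listed 35 of the 66 circles, and 3 were listed in all 9 libraries.

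Exon 2 opened 13 circles with 1873 reads, 45.9% of the host. Exon 8 opened 6 circles with 217 reads and exon 9 opened 5 with 55 reads. Exon 14 closed 7 circles with 583 reads (14.3%), exon 3 closed 6 with 315 reads and exon 25 closed 6 with 107 reads. The closing position with the most reads was none of these: a site at chr15:64295669, in the intron after exon 3, closed 4 circles with 1559 reads (38.2%). It lies 16680 bp past exon 3 and 87113 bp before exon 4, within an intron of 103792 bp that is the longest of the 30 in the transcript, and no exon edge is annotated there in GENCODE M21. The intron before exon 2 measured 32803 bp (rank 3) and that before exon 3 measured 37352 bp (rank 2), against a median of 2669 bp. Spearman's correlation between intron length and reads was 0.51 for the opening exon and 0.57 for the closing exon over the 30 introns, again as a description.

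The 2 leading circles of Asap1 both closed at that intron 3 site. One opened at exon 2 (chr15:64295669-64349913, 781 reads, 19.1% of the host) and the other at exon 3 (chr15:64295669-64312475, 746 reads, 18.3%). Exons 2 to 5 followed with 506 reads and exons 10 to 14 with 414. A circle from exon 2 to an exon edge of another annotated transcript within intron 3 (chr15:64311618-64349913) had 332 reads, and exons 2 to 3 had 145. From an unannotated site in intron 1 to exon 3 there were 123 reads (chr15:64312349-64361683). Exons 8 to 14 had 101 reads, exons 15 to 25 had 65, and a circle from exon 8 to an alternative edge of exon 11 had 54. The longest circle listed in at least 2 libraries spanned 177229 bp from exon 2 to exon 7 (chr15:64172685-64349913, 12 reads), and the shortest 2158 bp from exon 24 to exon 25 (chr15:64119958-64122115, 14 reads). Of the 45 circles between exons of Asap1-201, 13 had a spliced length that is a multiple of 3.

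Among 13 tested Asap1 circles, 1 was higher at day 3 and the same circle at day 6, and 0 were lower. At an unadjusted p under 0.05 there were 3 and 4, all higher, and DESeq2 called 2 at each day. The counts over the whole table are those given for Arhgap10. The called circle ran from exon 2 to the intron 3 site. It was at 103, 57.8 and 131 CPM at day 0, 376, 316 and 410.4 CPM at day 3, and 503, 398 and 339 CPM at day 6. No later library fell within the day 0 range. The log2 fold change over day 0 was 1.91 ± 0.53 at day 3 and 2.08 ± 0.54 at day 6 (SE, edgeR adjusted p = 0.0459 and 0.0192). The day 3 call is marginal, and the alternatives that ended it include RLE factors, library size only, no filter, a fit of these 2 days alone and leaving out any 1 of the 9 libraries (edgeR adjusted p of 0.0504 to 0.336 without 1 library). At day 6 it was lost with no filter (0.194), with these 2 days alone (0.0810), and when any of 5 single libraries was left out, namely replicates 1 and 2 of day 0, replicate 1 of day 3, and replicates 1 and 2 of day 6 (0.0552 to 0.147).

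The circle from exon 3 to the same site went the other way in its values but did not pass. It was at 447, 269.9 and 398 CPM at day 0, 183, 372 and 293 CPM at day 3, and 175, 101 and 251 CPM at day 6. The day 6 libraries lay below those of day 0, and day 3 overlapped both. Its log2 fold change over day 0 was -0.40 ± 0.53 at day 3 and -1.07 ± 0.54 at day 6 (SE, edgeR adjusted p = 1 and 0.354).

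Exons 2 to 5 of Asap1 were at 75.0, 0 and 51.7 CPM at day 0, 173, 386 and 258 CPM at day 3, and 238, 126 and 315 CPM at day 6. All later libraries were above day 0, with log2 fold changes of 2.67 ± 0.81 and 2.40 ± 0.80 (edgeR adjusted p = 0.0927 and 0.138), and DESeq2 called it at both days. Without day 0 replicate 1 it passed at both days (edgeR adjusted p = 0.0258 and 0.0431). Exons 10 to 14 had 106, 92.5 and 31.8 CPM at day 0, 128, 123 and 164 CPM at day 3, and 314, 231 and 213 CPM at day 6, which did not pass (0.872 and 0.354). The circles of exons 8 to 14, exons 15 to 25 and exon 8 to the alternative edge of exon 11 were listed at 0 in all day 0 libraries. At day 3 they averaged 74.5 ± 40.2, 35.5 ± 32.7 and 48.4 ± 43.5 CPM, with at least 1 library at 0 for the last 2, and none of the 3 passed at either day. The circle from exon 2 to the edge within intron 3 was at 0, 158 and 0 CPM at day 0, against 109 to 252 CPM at day 3 and 108 to 175 CPM at day 6, and it passed at both days without day 0 replicate 2, its only day 0 library above 0 (edgeR adjusted p = 0.000760 and 0.000665). Exons 2 to 3 averaged 18 ± 31.2, 58.7 ± 50.9 and 80.5 ± 21.9 CPM at days 0, 3 and 6, and the circle from intron 1 to exon 3 averaged 36.5 ± 31.8, 78.3 ± 43.9 and 17.4 ± 30.1 CPM.

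Between day 6 and day 3, 0 circles of either host passed, with 0 at an unadjusted p under 0.05 and 0 by DESeq2. Of all 8153 circRNAs tested, 0.0613% differed between these days, and 354 had an unadjusted p under 0.05. DESeq2 called 3 of them higher and 17 lower. The called circle with the most reads, of Arhgap10 exons 14 to 19, had a day 6 minus day 3 difference of -0.06 ± 0.22 log2.

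A circle's share within its host was tested by setting its log2 fold change against that of all tested host circles together, itself included. Over all hosts, 0.0916% of 6549 circles changed share at day 3, 0.153% at day 6 and 0.0153% between day 6 and day 3. With all 9 libraries the only change that passed for either host was that of Arhgap10 exons 9 to 12 at day 6. This circle's log2 fold change was 4.79 ± 1.09 above that of the tested Arhgap10 circles together (SE, edgeR adjusted p = 0.00891). The call was lost with no filter (edgeR adjusted p = 0.790) and without any 1 of the libraries except day 0 replicate 3 and day 3 replicate 1 (0.0647 to 0.418). Without day 0 replicate 1, a different Arhgap10 circle, that of exons 15 to 19, passed at day 3 and day 6 (edgeR adjusted p = 0.0114 and 0.00498). In the fit of all 9 libraries, 0 circles of Arhgap10 and 0 of Asap1 passed at day 3. There were 3 and 2 at an unadjusted p under 0.05, and at day 6 there were 4 and 2. Between day 6 and day 3, 0 passed in either host, with 1 and 0 at an unadjusted p under 0.05. Over all hosts, 336, 393 and 229 of the 6549 circles had such a p in these 3 comparisons. DESeq2 has no counterpart of this test here. The circle of exons 14 to 19, which passed on its level, did not pass on its share (0.73 ± 0.48 log2 at day 3, edgeR adjusted p = 0.854).

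Counted directly, the leading Arhgap10 circle made up 40.7, 38.3 and 41.2% of the host's reads at day 0, 35.7, 36.2 and 33.7% at day 3, and 31.1, 31.9 and 31.8% at day 6. These ranges do not overlap, but the circle did not pass in the share test. There its log2 difference from the host was -0.21 ± 0.44 at day 3 and -0.38 ± 0.44 at day 6 (SE, edgeR unadjusted p = 0.635 and 0.399). The top 3 circles together stayed at 60.8 to 67.1% over the 9 libraries. Reads closing at exon 18 made up 53.6 ± 3.31, 46.7 ± 1.81 and 43.5 ± 1.47% of the host at days 0, 3 and 6, and those closing at exon 19 made up 14.3 ± 4.04, 23.7 ± 1.06 and 22.0 ± 2.45% (SD, n = 3). Reads opening at exon 14 made up 57.1 ± 5.66, 59.2 ± 1.80 and 53.0 ± 2.54%. The leading Asap1 circle made up 11.1, 6.36 and 16.2% at day 0, 23.2, 14.4 and 21.1% at day 3, and 29.9, 25.1 and 18.3% at day 6, with day 0 and day 3 overlapping.

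Pairs of circles that share an end were picked after their values had been seen, so their shares are given with no test. Of the reads of exons 14 to 18 plus 14 to 19, exons 14 to 19 made up 26.4, 17.7 and 20.7% at day 0, 34.6, 31.1 and 38.6% at day 3, and 33.9, 37.4 and 32.7% at day 6. Of the reads of exons 9 to 12 plus 9 to 13, exons 9 to 12 made up 0, 0 and 1.92% at day 0, 0, 10.7 and 14.9% at day 3, and 18.4, 13.5 and 15.4% at day 6. At the intron 3 site of Asap1, exon 2 opened 18.8, 17.6 and 24.8% of the reads of exon 2 plus exon 3 at day 0, 67.2, 45.9 and 58.3% at day 3, and 74.2, 79.7 and 57.4% at day 6. In the pairs of exons 14 to 19 and of the Asap1 site all later libraries exceeded all day 0 libraries, while for exons 9 to 12 a day 3 library was at 0.

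**Figure D4:**
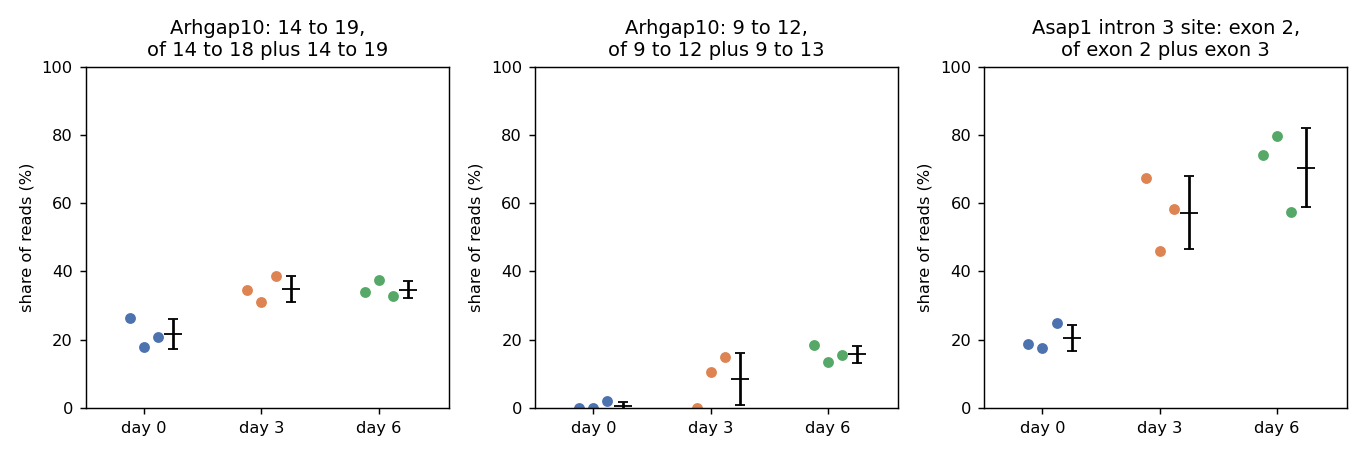
Share of reads, in percent, taken by one circle of a pair with a common end, by day. Points are libraries and black marks the mean ± SD of 3 libraries. At the Asap1 intron 3 site the share opened at exon 2 is 17.6 to 24.8% at day 0 and 57.4 to 79.7% at day 6.

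Libraries of days 3 and 6 listed more different circles on average than those of day 0, with Arhgap10 overlapping between day 6 and day 0. Arhgap10 had 27, 27 and 33 circles listed at day 0, 34, 35 and 39 at day 3, and 32, 39 and 38 at day 6. Asap1 had 9, 10 and 10 at day 0, 20, 22 and 22 at day 3, and 14, 20 and 22 at day 6. Later libraries also held more reads of both hosts, so the counts were compared at equal reads, 1694 for Arhgap10 and 204 for Asap1. Asap1 then had 20.4 ± 0.540 circles at day 3, against 9.66 ± 0.595 at day 0 (SD, n = 3 each), a difference of 10.8 (exact two-sided permutation p = 0.1, adjusted over 6 comparisons 0.2), and 18.1 ± 3.82 at day 6 (p = 0.1, adjusted 0.2, exact permutation). Arhgap10 had 35.8 ± 2.66 circles at day 3, against 29.0 ± 3.47 at day 0 (exact permutation p = 0.1, adjusted 0.2), and 36.1 ± 3.70 at day 6 (exact permutation p = 0.2, adjusted 0.3). With 3 libraries against 3, 0.1 is the smallest p possible, so none of these could pass. Day 6 minus day 3 was 0.295 circles for Arhgap10 and -2.32 for Asap1 (exact permutation p = 1 and 0.4). Thinning assumes independent reads, which reads without molecular identifiers need not be. It also changed the numbers little. In day 6 replicate 3, going from 5100 to 1694 reads took Arhgap10 from 38 to 37.7 circles. Going from 782 to 204 reads took Asap1 from 22 to 20.9. The comparison at equal reads is thus nearly that of the listed numbers, and the part of read depth in them was not tested.

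Both hosts were set beside the other hosts with many circles. Fn1, which encodes fibronectin, had 102 circles, Utrn (utrophin) and Ttn (titin) 79 each, and Ptk2, with 65, was the host just below Asap1. The leading circle held 34.8% of Arhgap10 reads and 19.1% of Asap1 reads, against 70.7% in Utrn, 82.6% in Ttn and 12% in Fn1, with a median of 37.7% over the 1068 hosts with at least 10 circles. Arhgap10 had 3.12 circles per closing position and 3.38 per opening position, and Asap1 2.36 and 2.20, against medians of 1.75 and 1.75, which place Arhgap10 at ranks 29 and 15 and Asap1 at ranks 155 and 215 of 1068. These ratios contain the circle count by which the hosts were chosen and are a description only. Single-library circles numbered 37 of 81 in Arhgap10 and 35 of 66 in Asap1, against 86 of 102 in Fn1, where they held 48.7% of the reads. Among hosts with 0.8 to 1.25 times the reads of Arhgap10, 3 hosts had 17 to 37 circles, and among 72 such hosts of Asap1 the range was 4 to 65 with a median of 18.

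**Figure D5:**
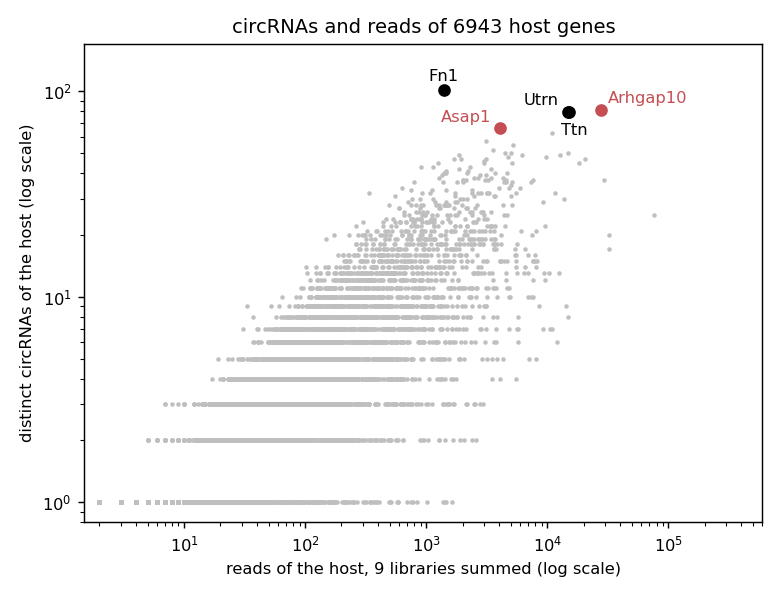
Distinct circRNAs against reads summed over 9 libraries for 6943 host genes, both axes on a log scale, each point being 1 host. Arhgap10 (81 circles, 27574 reads) and Asap1 (66 circles, 4079 reads) are in red, and Fn1, Utrn and Ttn in black.

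From a list of 22 other GTPase-activating proteins for Arf, 17 were listed and 11 tested, and 0 passed in edgeR at day 3 or day 6, with 3 and 2 at an unadjusted p under 0.05 and 1 called by DESeq2 at each day. Their median log2 fold changes were -0.64 and -0.84, against -0.02 and -0.13 over all hosts tested. Of these 4135 hosts, 556 and 722 had an unadjusted p under 0.05 at days 3 and 6. DESeq2 called 169 higher and 118 lower at day 3, and 242 higher and 206 lower at day 6. Between day 6 and day 3, 0 of the 11 passed, with 1 at an unadjusted p under 0.05 and 0 by DESeq2. Over all hosts tested, 246 had such a p between these days, and DESeq2 called 9 higher and 10 lower.

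Likeness over the 9 libraries was measured with Pearson's r of log2 CPM, which does not compare level or size of change. Among 1587 hosts with a mean of at least 100 CPM, those nearest to Arhgap10 were Macf1, a cytoskeletal linker gene (r = 0.99), Tnnt1, the slow skeletal troponin T gene (0.98), and Dip2c (0.97). Nearest to Asap1 were Utrn (0.97), the growth hormone receptor gene Ghr (0.96) and Tanc2 (0.96). Arhgap10 and Asap1 had r = 0.89 with each other. These values describe 9 libraries that fall into 3 days and share their scaling, and carry no test.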

How the data were processed

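Circular RNA back-splice junctions were measured in 9 C2C12 libraries, 3 per day. The authors deposited the raw counts of junction reads in a table of circRNAs by library that also names locus, type and host gene. The build GRCm38.p4 (mm10) and the aligner BWA are named, per the submitters' processing notes, while the circRNA caller and its filters are not given in the sources used. The build was checked against GENCODE M21 (GRCm38): exon edges matched 86.7% of starts and 86.8% of ends, and under 1% of either when shifted by 1 bp. Exons are numbered by Arhgap10-201 and Asap1-201.

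Counts were tested with edgeR 4.0.16 (quasi-likelihood F-test, TMM factors, group means without a block, all 9 libraries) in R 4.3.3, after filterByExpr with a minimum count of 5 and a minimum total of 15, which kept 8153 circRNAs and 4135 hosts (summed counts). Adjusted p-values are Benjamini-Hochberg values over all features tested, with a threshold of 0.05. CPM uses TMM-adjusted totals. The SE is approximate, from dividing the size of the log2 fold change by the root of F. Shares within hosts were tested with edgeR's diffSpliceDGE. The scripts were tested on simulated data. Permutation tests and descriptions used Python 3.11.15 and scipy 1.17.1. PCR reads without molecular identifiers are not independent molecules.

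The members, lists and tests were chosen with earlier results of these data known. Circles were named by rule: per host, the 10 with most reads, those called, the ends shared by most circles, and the longest and shortest. The lists covered Arf GTPase-activating proteins and cell type markers, and some planned list results are not reported here. Likeness used log2(CPM + 1). The comparisons with day 0 share the day 0 libraries. Alternatives were RLE factors, library size only, no filter, a minimum count of 10, DESeq2 1.42.0, only the 2 days compared, a replicate block, and leaving out each library.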

Additional observations from a re-analysis of the deposited data

How the results depend on the processing

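The host results kept their direction and their side of the threshold under every alternative run. With a replicate block the log2 fold changes at day 3 and day 6 over day 0 were 0.74 and 0.90 for Arhgap10 and 1.16 and 1.05 for Asap1. Libraries with the same number did not deviate together (correlations of deviations from the day means of -0.037 to 0.0034). These values show no pairing by number, but counting noise in hosts with few reads could hide one. With the replicate block 3 and 4 Arhgap10 circles and 1 and 1 Asap1 circles were called at days 3 and 6. The Arhgap10 circles were those called without the block plus exons 15 to 19 at both days. The Asap1 circle called at day 3 was that of exons 2 to 5 (edgeR adjusted p = 0.0359), while that of exon 2 to the intron 3 site did not pass (0.0537), and at day 6 the intron 3 circle passed (0.0205). The counts of called circles were small and moved with the setting. For Arhgap10, where 2 were called at day 3 and 3 at day 6, a minimum count of 10 gave 1 at day 3, DESeq2 gave 1 and 5, a fit of only the 2 days compared gave 1 and 1, and leaving out 1 library gave 2 to 4 and 3 to 5. For Asap1, where 1 was called at each day, RLE factors and library size only gave 0 at day 3, no filter and only the 2 days compared gave 0 at both days, DESeq2 gave 2 at both, and leaving out 1 library gave 0 to 1 at both, for different circles: without day 0 replicate 1 it was exons 2 to 5, and without day 0 replicate 2 the circle from exon 2 to the edge of another transcript. The share test gave 0 at day 6 with no filter for Arhgap10, against 1, and 0 to 1 at day 3 and at day 6 without 1 library. Without day 0 replicate 1 the circle called at both days was that of exons 15 to 19. The small difference in Arhgap10 circles at equal reads between day 6 and day 3 was -1 when circles of at least 5 reads were counted, and -1.05 to 2.41 without 1 library. The cause of these changes was not tested. With RLE factors or library size only, the median log2 fold change of all hosts was -0.13 or -0.15 at day 3 and -0.19 or -0.24 at day 6, against -0.02 and -0.13 with TMM factors, and levels are relative to these scalings. Asap1, with 204 to 782 reads per library, is measured less precisely than Arhgap10.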
